A study of Homo sapiens with 9 samples.

Results

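The cancer-testis antigen families were followed in MDA-MB-231 cells, a mesenchymal triple-negative breast cancer line, stably expressing an shRNA. Members were chosen by their symbol: every gene named MAGEA to MAGEF, GAGE, PAGE, XAGE, SSX, CTAG, SPANX or CSAG followed by a digit, plus PRAME, TSPYL5 and BAGE, which gave 89 of the 26364 genes in the count files. No SPANX gene has a digit at that place, so that family has no member. The pattern also took in SSX2IP, which encodes a partner of an SSX protein and is no antigen, the antisense gene MAGEA8-AS1 and the readthrough gene MAGEA10-MAGEA5. The 9 libraries were 3 of the non-targeting control (shNT), 3 of shGLO1#1 and 3 of shGLO1#2, the last 2 being clones silenced for GLO1, the glyoxalase that detoxifies methylglyoxal. The cells carried no other labelled treatment. The control was 1 clone and each shRNA result came from 1 clone, so clone and shRNA cannot be told apart in any comparison.

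The libraries held 15314238 to 18495576 counts on genes. GLO1 checked the labels: its level in CPM, counts scaled to the size of the library, was 317.4 ± 5.63 for shNT, 65.4 ± 0.955 for shGLO1#1 and 14.7 ± 0.760 for shGLO1#2 (mean ± SD, n = 3 each). The defining genes of the line (VIM, CD44 and EGFR) summed to 3681 to 4918 CPM in every library. Most of this was VIM, at 3330, 3158 and 4144 CPM on average in shNT, shGLO1#1 and shGLO1#2. CDH1, the epithelial cadherin that was listed as low in this line, was at 26.1 ± 9.03 CPM for shNT, 1.81 ± 0.329 for shGLO1#1 and 0.516 ± 0.0283 for shGLO1#2 (SD, n = 3). Of the other genes listed as low, ERBB2 averaged 79.8, 75.5 and 67.9 CPM and EPCAM 14.6, 13.2 and 10.7 in shNT, shGLO1#1 and shGLO1#2. Both were thus read in every condition, while ESR1 and PGR were at most at 0.255 and 0.179 CPM on average.

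Cancer-testis genes are normally transcribed in germ cells of the testis and kept off in most other tissues. Many lie in clusters of recent copies on the X chromosome, and DNA methylation of their promoters is a well-known part of their silencing. Tumors often express some of them again, and their peptides can be seen by T cells. MAGE proteins of the A, B and C groups are restricted in this way and bind ubiquitin ligases, whereas MAGED, MAGEE and MAGEF genes are transcribed in many tissues.

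Promoter sequences are shown for genes whose counts went on, off, up or down, as the place where methylation is known to act on these families; promoter use and methylation were not measured here. RefSeq windows (GRCh38.p14, 250 bases before to 50 after the start) were found for 62 of the 89 members. They are written 5′ to 3′ on the gene's own strand, with each CpG, the site of DNA methylation, in capitals.
MAGEB1, chrX:30246896-30247195, + strand: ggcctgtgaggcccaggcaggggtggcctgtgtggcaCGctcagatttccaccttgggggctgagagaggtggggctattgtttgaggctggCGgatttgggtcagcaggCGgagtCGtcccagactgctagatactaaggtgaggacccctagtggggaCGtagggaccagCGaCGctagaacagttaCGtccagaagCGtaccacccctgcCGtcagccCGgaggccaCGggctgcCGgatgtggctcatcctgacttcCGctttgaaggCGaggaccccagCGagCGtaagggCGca
MAGEC3, chrX:141894416-141894715, + strand: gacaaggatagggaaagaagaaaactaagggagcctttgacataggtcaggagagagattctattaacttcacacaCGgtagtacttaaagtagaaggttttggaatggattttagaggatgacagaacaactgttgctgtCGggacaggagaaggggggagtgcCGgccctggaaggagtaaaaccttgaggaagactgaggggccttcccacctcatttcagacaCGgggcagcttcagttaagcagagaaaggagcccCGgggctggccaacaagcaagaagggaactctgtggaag
MAGEC1, chrX:141903644-141903943, + strand: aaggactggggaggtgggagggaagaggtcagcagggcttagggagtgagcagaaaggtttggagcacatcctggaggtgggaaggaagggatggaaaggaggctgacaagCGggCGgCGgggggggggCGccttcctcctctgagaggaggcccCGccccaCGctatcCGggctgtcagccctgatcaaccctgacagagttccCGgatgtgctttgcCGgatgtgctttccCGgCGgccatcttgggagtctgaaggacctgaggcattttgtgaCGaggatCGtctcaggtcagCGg
MAGEC2, chrX:142205241-142205540, − strand: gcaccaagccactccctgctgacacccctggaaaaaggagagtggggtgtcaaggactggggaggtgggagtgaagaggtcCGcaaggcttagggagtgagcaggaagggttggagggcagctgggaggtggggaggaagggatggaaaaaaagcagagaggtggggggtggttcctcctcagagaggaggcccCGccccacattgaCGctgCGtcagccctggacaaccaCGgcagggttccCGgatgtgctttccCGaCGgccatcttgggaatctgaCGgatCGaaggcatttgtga
MAGEA12, chrX:152733612-152733911, + strand: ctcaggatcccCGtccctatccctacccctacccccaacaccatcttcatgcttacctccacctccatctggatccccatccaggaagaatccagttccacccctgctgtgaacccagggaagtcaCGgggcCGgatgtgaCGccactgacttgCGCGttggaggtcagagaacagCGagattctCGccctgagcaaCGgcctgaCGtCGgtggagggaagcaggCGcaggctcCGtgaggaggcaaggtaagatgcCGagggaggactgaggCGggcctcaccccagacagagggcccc
SSX1, chrX:48255142-48255441, + strand: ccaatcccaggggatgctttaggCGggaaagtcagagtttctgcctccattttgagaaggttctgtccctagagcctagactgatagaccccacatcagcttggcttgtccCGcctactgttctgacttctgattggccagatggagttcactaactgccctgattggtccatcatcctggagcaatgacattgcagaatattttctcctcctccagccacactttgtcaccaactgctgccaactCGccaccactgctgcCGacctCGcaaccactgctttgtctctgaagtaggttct

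The windows of MAGEB1, MAGEA12, MAGEC1 and MAGEC2 held 18, 15, 14 and 10 CpG, whereas those of MAGEC3 and SSX1 held 5 each, against a median of 14 over all 35116 RefSeq windows and 12.5 over the 82 member windows. MAGEB1 and MAGEA12 each have another start, not shown, because the window with the most CpG was taken for each gene. The other window of MAGEB1 held 1 CpG and that of MAGEA12 held 9. The medians cover every start, so these picked windows are not compared with them on equal terms. The letters CCGGATGTG, the core of an Ets-type site, were searched on both strands after the windows had been read. They stood in 0.339% of all windows and in 19 of the 82 member windows, which belong to 13 genes that include MAGEA11, MAGEA12, CSAG1, MAGEB1, MAGEC1 and MAGEC2. Members of a family are copies of each other, so these windows are not independent. Some windows also overlap and hold the same site, as those of CSAG1 and MAGEA12 do, and those of CSAG3 and MAGEA2. The motif was in genes that were higher in shGLO1#2 (MAGEC2), lower there (MAGEA11, MAGEA12, CSAG1, MAGEC1) and off in both clones (MAGEB1). GCCATCTTG, a YY1-type motif, stood in 1.42% of all windows and, among members, in those of MAGEC1 and MAGEC2, where it did not overlap the Ets-type letters. Both genes, which moved in opposite directions in shGLO1#2, had windows 60.2% identical in alignment.

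Most of the members were silent in every condition. Of 89, 52 had no count in any of the 9 libraries and 66 were silent in all 3 conditions, where silent means at most 3 counts summed over the 3 libraries of a condition. A member was called expressed with at least 10 counts in every library of a condition, and 15 met this in at least 1 condition and 9 in all. The silent set held 21 of 22 GAGE members, all 5 XAGE members, 9 of 10 MAGEB members and 11 of 15 MAGEA members. PRAME, a retinoic acid receptor repressor expressed in many tumors, had 1 count in all, and BAGE had none. XAGE, PRAME and BAGE had no member above that limit. Reads that aligned to more than 1 place were not counted, so a near-identical copy (GAGE, XAGE, SSX, CTAG and MAGEA genes) can be listed at 0 and still be transcribed.

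MAGEB1, TSPYL5, CTAG2 and MAGEC3 switched between silent and expressed, and they were selected on their counts, so their values are a description with no test. MAGEB1, a MAGE gene of the Xp cluster, had 21, 40 and 47 counts in the shNT libraries and none in the 6 libraries of the GLO1-depleted clones. TSPYL5, an autosomal relative of the testis-specific TSPY genes, had 15, 18 and 25 counts in shNT and likewise none in either clone. Both genes were thus read in each control library and in no library with the GLO1 shRNA. Their levels in shNT were 2.21 ± 0.689 and 1.19 ± 0.189 CPM (SD, n = 3). In bulk RNA, fewer cells with a transcript and less of it per cell cannot be told apart.

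CTAG2 and MAGEC3 went the other way, each in a single clone. CTAG2, a close homolog of the NY-ESO-1 antigen genes, had 12, 14 and 17 counts in shGLO1#1 and none in shNT or shGLO1#2. With a floor of 3 counts over a group of libraries, it was at least 13.3-fold higher in shGLO1#1 than in shNT, and at least 13.9-fold lower in shGLO1#2 than in shGLO1#1. MAGEC3, of the MAGEC cluster, had 29, 19 and 16 counts in shGLO1#2, 1, 1 and 0 in shGLO1#1, and none in shNT. It was at least 20.4-fold higher in shGLO1#2 than in shNT, and 33.1-fold higher than in shGLO1#1 (exact 95% interval 8.79 to 279, counting error only), a ratio that rests on 2 counts. The clones therefore shared both losses and neither gain. Each loss was read against the same 3 shNT libraries of 1 control clone, so the 2 clones do not show it independently.

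Over all genes, 0.055% of those expressed in shNT were silent in shGLO1#1 and 0.0628% in shGLO1#2. The members gave 2 of 13 in each case. Of the genes silent in shNT, 0.0935% were expressed in shGLO1#1 and 0.234% in shGLO1#2, against 1 of 72 members in each. From shGLO1#1 to shGLO1#2, 0.0608% of genes went off and 0.107% came on, with 1 of 12 and 1 of 70 members. The rule asked for switches, so nothing is read from these shares. CTAG2 lay just inside the limit for expressed, with 12 counts in its lowest library. MAGEA11 lay just outside both limits, with 8 counts in its lowest shNT library and 4 summed counts in shGLO1#2.

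**Figure D1:**
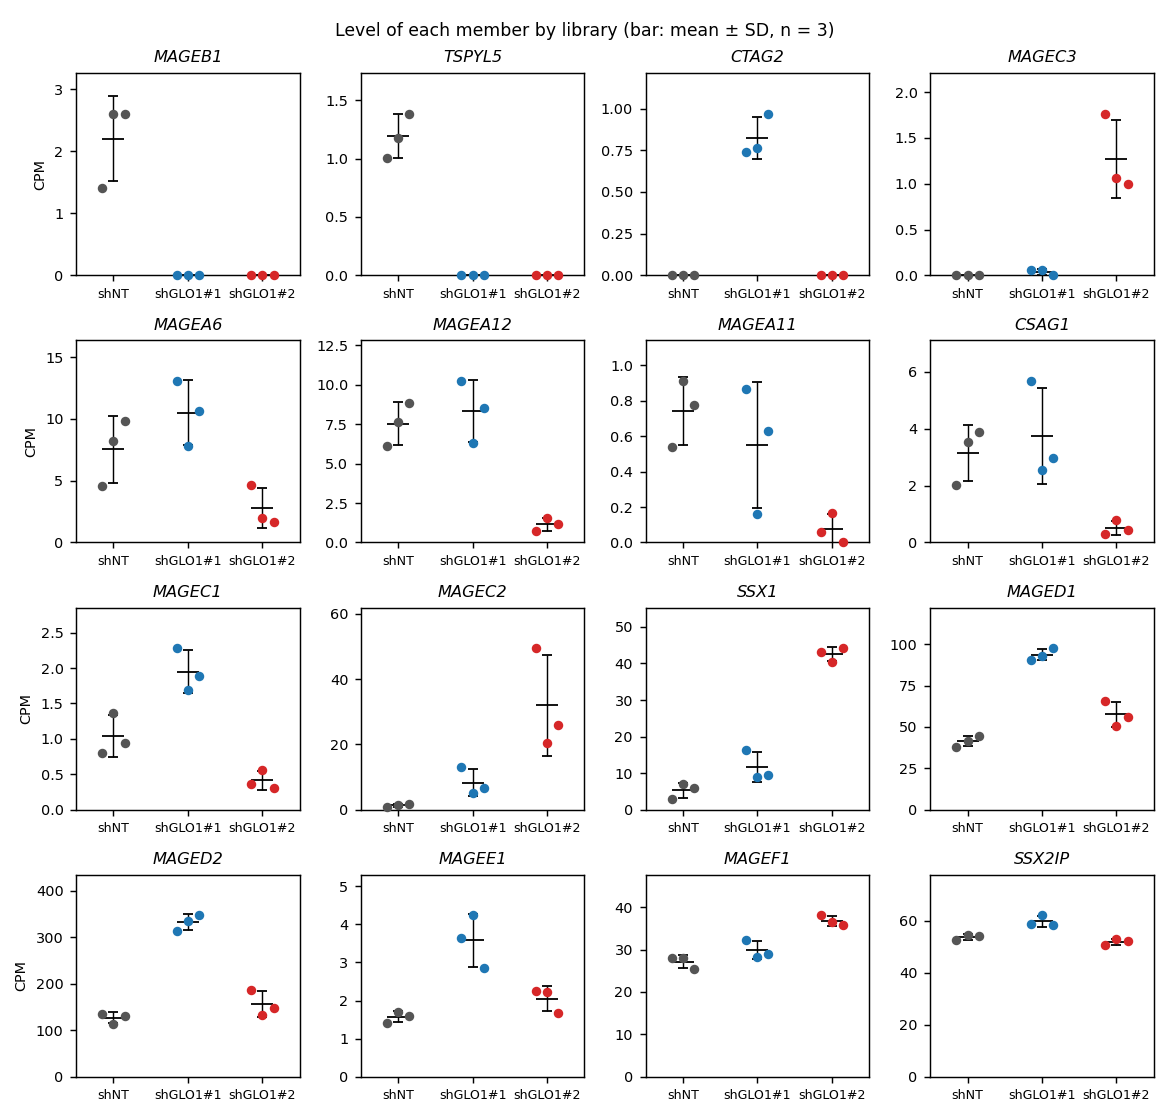
Level in CPM (vertical axes, linear, each from 0) of the 15 members expressed in at least 1 condition and MAGEA11, by condition. Points are libraries in the order of replicates 1 to 3 and bars the mean ± SD (n = 3, drawn down to 0); MAGEB1 and TSPYL5 lie at 0 in both clones, CTAG2 is above 0 in shGLO1#1 alone, and MAGEC2 and SSX1 are highest in shGLO1#2.

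For the other members a test was made in edgeR over the 13704 genes that passed a filter on low counts, 16 members among them, and a gene was called at a Benjamini-Hochberg adjusted p under 0.05 with a log2 fold change beyond 1. In shGLO1#1 against shNT, 6 of the 16 members were called higher and 2 lower, where 5.98% and 2.75% of all genes tested were called. In shGLO1#2 against shNT, 3 were called higher and 7 lower, against 5.09% and 2.59%. Between the clones, 3 were higher and 7 lower in shGLO1#2, against 3.33% and 3.75%. These counts include the switched genes, and a member that is high in 1 condition passes the filter through that condition, so they describe the 16 and support nothing further. The median absolute log2 fold change of the 16 was 1.15 and 2.03 for shGLO1#1 and shGLO1#2, against 0.24 and 0.21 over all genes tested. Both clones were set against the same 3 shNT libraries.

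The 3 tested MAGEA genes, MAGEA6, MAGEA11 and MAGEA12, and the neighboring CSAG1 fell in shGLO1#2 and were not called in shGLO1#1. MAGEA12, a MAGE-A antigen, had 91, 117 and 160 counts in shNT, 166, 116 and 149 in shGLO1#1, and 12, 28 and 19 in shGLO1#2. Its shGLO1#2 libraries all lay far below the other 6, while shNT and shGLO1#1 overlapped. Log2 fold changes from the test were 0.14 (SE 0.20, adjusted p = 0.609) for shGLO1#1, -2.69 (SE 0.27, adjusted p = 4.27e-06) in shGLO1#2, and -2.83 (SE 0.26, adjusted p = 1.86e-06) between the clones.

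CSAG1, first found in chondrosarcoma, is transcribed away from MAGEA12, and their promoter windows share 240 bases. Its counts were 30, 54 and 70 in shNT, 92, 47 and 52 in shGLO1#1, and 5, 14 and 7 in shGLO1#2. It showed the same order as MAGEA12, with log2 fold changes of 0.23 (adjusted p = 0.586), -2.60 (SE 0.44, adjusted p = 3.43e-04) and, between the clones, -2.83 (adjusted p = 1.12e-04). The library kit does not mark strand, so reads from any overlap of neighboring genes cannot be assigned by strand.

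MAGEA6, whose protein forms a ubiquitin ligase with TRIM28, had 68, 126 and 178 counts in shNT, 212, 143 and 187 in shGLO1#1, and 76, 36 and 27 in shGLO1#2. The highest shGLO1#2 library, at 4.63 CPM, lay above the lowest shNT library, at 4.57 CPM. It fell by 1.46 on the log2 scale in shGLO1#2 (SE 0.35, adjusted p = 0.00467), and its difference between the clones was -1.92 (SE 0.34, adjusted p = 4.21e-04), whereas in shGLO1#1 the value was 0.46 (adjusted p = 0.226). The promoter window of MAGEA6 is identical over 300 of 300 bases to that of MAGEA3. MAGEA3, left out by the filter, went the other way in shGLO1#2, with 10, 14 and 32 summed counts in shNT, shGLO1#1 and shGLO1#2, and the split of reads between these near-identical copies is uncertain.

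MAGEA11, a MAGE-A protein that binds the androgen receptor, never reached 10 counts in every library. It had 8, 14 and 14 counts in shNT, 14, 3 and 11 in shGLO1#1, and 1, 3 and 0 in shGLO1#2. All shGLO1#2 libraries lay below shNT, and the log2 fold change there was -3.12 (SE 0.74, adjusted p = 0.00413). Between the clones it was -2.66 (adjusted p = 0.0127), a call that was lost without shGLO1#1 replicate 1, with -2.20 and an adjusted p of 0.0613. The 15 MAGEA members together summed to 16.1 ± 4.32 CPM with shNT, 19.7 ± 5.06 with shGLO1#1 and 4.64 ± 1.19 with shGLO1#2 (SD, n = 3).

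The 3 MAGEC genes, neighbors on the X chromosome, did not move together. MAGEC2, a TRIM28 partner and known tumor antigen, rose in both clones, from 14, 21 and 32 counts in shNT to 210, 95 and 114 in shGLO1#1 and 813, 366 and 419 in shGLO1#2. No 2 conditions overlapped. Its level was 1.36 ± 0.416, 8.21 ± 4.17 and 32.0 ± 15.4 CPM (SD, n = 3), and replicate 1 was the highest library of each clone. Log2 fold changes came to 2.55 (SE 0.49, adjusted p = 8.31e-04) for shGLO1#1, 4.52 (SE 0.44, adjusted p = 3.19e-06) in shGLO1#2 and 1.97 (SE 0.33, adjusted p = 2.73e-04) between the clones.

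MAGEC1, the next MAGEC gene and also a tumor antigen, had 12, 21 and 17 counts in shNT, 37, 31 and 33 in shGLO1#1, and 6, 10 and 5 in shGLO1#2. It fell in shGLO1#2, by 1.30 on the log2 scale (SE 0.35, adjusted p = 0.0101), the direction opposite to MAGEC2 and MAGEC3 in the same clone. The log2 fold change for shGLO1#1 was 0.90 (SE 0.27, adjusted p = 0.0135), short of the limit of 1, and without shNT replicate 2 it passed that limit at 1.14. Between the clones it was -2.20 (SE 0.31, adjusted p = 7.41e-05).

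**Figure D2:**
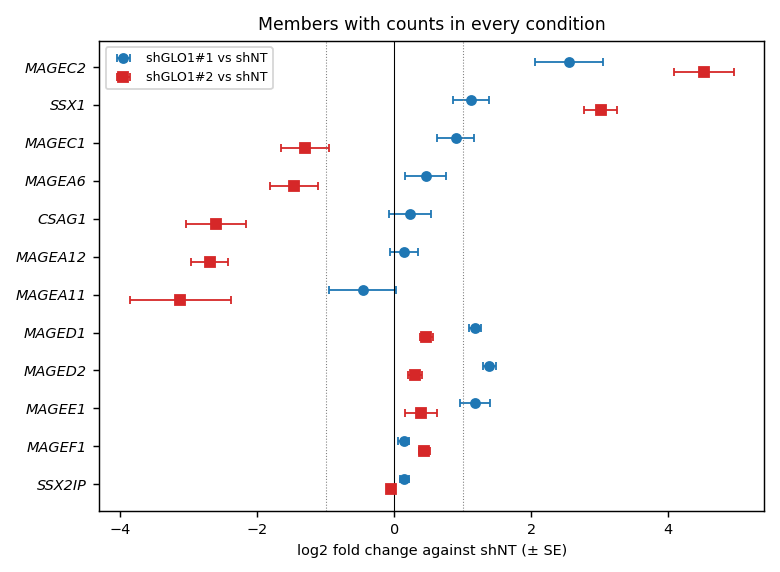
Log2 fold change (horizontal axis) with its SE for the 12 tested members that did not switch, in shGLO1#1 (circles) and shGLO1#2 (squares) against the same shNT libraries; dotted lines mark the limit of 1 in each direction. MAGEC2 and SSX1 lie to the right in both clones, the MAGEA genes, CSAG1 and MAGEC1 lie left of -1 in shGLO1#2 alone, and MAGED1, MAGED2 and MAGEE1 lie right of 1 in shGLO1#1 alone.

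SSX1, a transcriptional repressor that is fused to SS18 in synovial sarcoma, was, beside SSX2IP, the only SSX member expressed in any condition. It had 42, 106 and 109 counts in shNT, 266, 163 and 168 in shGLO1#1, and 710, 725 and 713 in shGLO1#2. The 3 conditions did not overlap, and the shGLO1#2 libraries lay close together at 42.7 ± 1.95 CPM, against 5.26 ± 2.15 in shNT and 11.6 ± 4.17 in shGLO1#1 (SD, n = 3). SSX1 rose by 3.01 on the log2 scale in shGLO1#2 (SE 0.24, adjusted p = 7.30e-07) and was 1.88 higher there than in shGLO1#1 (SE 0.22, adjusted p = 1.20e-05). The call for shGLO1#1 was at 1.12 (SE 0.26, adjusted p = 0.00344), and it fell short of the limit of 1 without shNT replicate 1 (0.84) or without shGLO1#1 replicate 1 (0.80).

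Further SSX copies were near the detection limit. SSX6 had 1, 1 and 14 summed counts and SSX8 had 2, 5 and 20 in shNT, shGLO1#1 and shGLO1#2. Both were left out by the filter. Without a filter, both were called higher in shGLO1#2 than in shNT, SSX6 at 3.34 (adjusted p = 0.0168) and SSX8 at 3.05 (adjusted p = 0.00944), and so was MAGEA3, at 1.59 (adjusted p = 0.0221). RefSeq now names SSX6 and SSX8 as pseudogenes, and reads from SSX1 may be counted on such copies. The other members with low counts and no test were CSAG4, which overlaps MAGEA12 (4, 6 and 0 summed counts), GAGE10 (2, 5 and 3), PAGE2 (1, 5 and 2) and PAGE2B (5, 14 and 11).

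**Figure D3:**
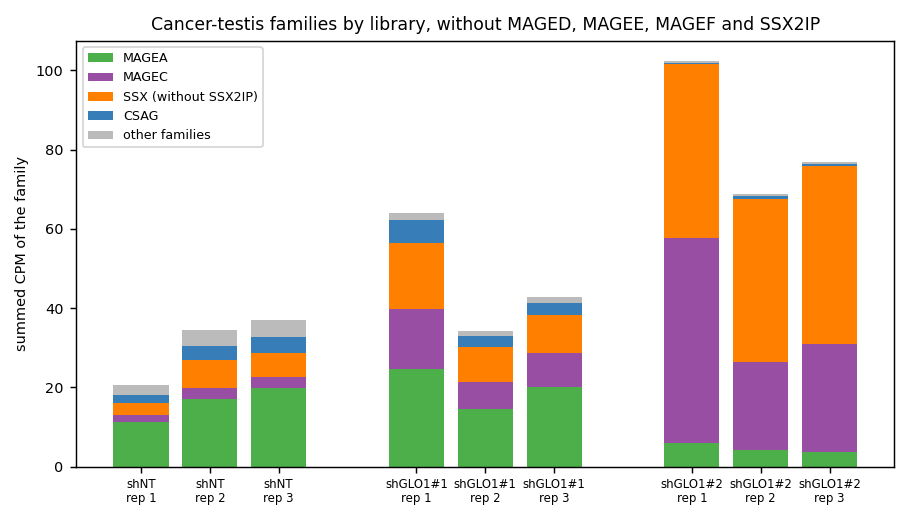
Summed CPM of the cancer-testis families in each library (stacked bars from 0), without MAGED, MAGEE, MAGEF and SSX2IP; CPM are scaled to library size and not to gene length, so the heights of different families are not to be compared. MAGEA sums are 14.5 CPM or more in the shGLO1#1 libraries and at most 5.97 in the shGLO1#2 libraries, where MAGEC sums are 22.1 to 51.7.

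The sum of all 81 members outside MAGED, MAGEE, MAGEF and SSX2IP came to 30.7 ± 8.72 CPM for shNT, 47.0 ± 15.2 for shGLO1#1 and 82.6 ± 17.5 for shGLO1#2 (SD, n = 3). The 3 shNT libraries stood at 20.7, 34.4 and 36.9 CPM, those of shGLO1#1 at 63.9, 34.3 and 42.9, and those of shGLO1#2 at 102.3, 68.7 and 76.8. Most of the mean sum in shGLO1#2 was MAGEC2 at 32.0 CPM and SSX1 at 42.7, from 1.36 and 5.26 in shNT. The MAGEA and CSAG families did not share this rise. From shNT to shGLO1#2, MAGEA sums went from 16.1 to 4.64 CPM and CSAG sums from 3.2 to 0.53. Members outside the MAGEA, MAGEC, SSX, CSAG, MAGED, MAGEE and MAGEF families went from 3.64 to 0.438 CPM. Most of that shNT sum was MAGEB1 at 2.21 CPM and TSPYL5 at 1.19, both at 0 in shGLO1#2. Both genes were selected on their counts, so nothing is read from this fall. The spread within a condition was shared by different genes. Of the 7 tested cancer-testis members with counts in every condition (CSAG1, MAGEA6, MAGEA11, MAGEA12, MAGEC1, MAGEC2 and SSX1), all 7 were lowest in replicate 1 among the shNT libraries. In shGLO1#1 all 7 were highest in replicate 1 and lowest in replicate 2. In shGLO1#2 the highest library differed from gene to gene, replicate 1 for 2 genes, replicate 2 for 4 and replicate 3 for 1. This order was noticed after the values were seen and was not tested, and the CPM already take library size into account.

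Of the widely transcribed MAGE genes, MAGED1, MAGED2 and MAGEE1 rose in shGLO1#1 and were not called in shGLO1#2. MAGED2, known from a transient kidney salt-wasting disorder, had a level of 126.9 ± 11.6 CPM with shNT, 332.6 ± 16.8 with shGLO1#1 and 156.2 ± 27.5 with shGLO1#2 (SD, n = 3). Its rise in shGLO1#1 was 1.39 on the log2 scale (SE 0.10, adjusted p = 2.36e-07), and the value in shGLO1#2 was 0.30 (adjusted p = 0.0340), under the limit of 1. The clones differed by -1.09 (SE 0.10, adjusted p = 1.75e-06), which became -0.99, and no longer a call, without shGLO1#2 replicate 2. MAGED1, a binding partner of the neurotrophin receptor NGFR, had 568, 638 and 800 counts in shNT, 1470, 1707 and 1714 in shGLO1#1, and 1076, 909 and 907 in shGLO1#2. On the log2 scale it rose by 1.18 in shGLO1#1 (SE 0.09, adjusted p = 2.36e-07) and stood at 0.47 in shGLO1#2 (adjusted p = 8.05e-04), with -0.71 between the clones (adjusted p = 1.72e-05).

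MAGEE1, which binds the dystrobrevin complex, had 21, 26 and 29 counts in shNT, 59, 78 and 50 in shGLO1#1, and 37, 40 and 27 in shGLO1#2, and rose in shGLO1#1 by 1.18 on the log2 scale (SE 0.22, adjusted p = 5.59e-04). In shGLO1#2 it stood at 0.39 (adjusted p = 0.218), and the clones differed by -0.80 (adjusted p = 0.00615), short of the limit of 1. MAGEF1, the autosomal MAGE gene, was at 0.14 in shGLO1#1 (adjusted p = 0.176) and 0.44 in shGLO1#2 (adjusted p = 5.69e-04), and SSX2IP, a centrosome and cell junction protein, at 0.15 (adjusted p = 0.0447) and -0.05 (adjusted p = 0.523). Neither passed the limit of 1 in any comparison. MAGEH1, 1 of 2 tested MAGE genes outside the rule, was called in both clones, at 1.89 in shGLO1#1 (adjusted p = 1.70e-05) and 1.59 in shGLO1#2 (adjusted p = 1.20e-04).

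The rise of MAGED1 and MAGED2 in shGLO1#1 was shared by the genes around them on the X chromosome. In RefSeq order both lie in an unbroken run of 57 tested genes with a log2 fold change above 0 in shGLO1#1, from WDR13 to AMER1. The 55 genes of this run that are no members had a median of 0.80 (0.02 to 2.28) and 14 were called higher, among them GPR173 at 2.28 beside MAGED1 and FGD1 at 1.16 beside MAGED2. In shGLO1#2 the same 55 genes had a median of 0.04, 29 were above 0 and 1 was called higher, MAGEH1. Between the clones their median was -0.79, beside -0.71 for MAGED1 and -1.09 for MAGED2. The next longest run of one sign on the X chromosome in shGLO1#1 held 21 genes. The run was described after the values were seen and was not tested, and its part in the levels of MAGED1 and MAGED2 was not tested either. SSX1 lay outside it. MAGEE1, elsewhere on the chromosome, had 6 neighbors at 0.18 to 1.45 in shGLO1#1 and at -0.72 to -0.06 in shGLO1#2.

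**Figure D4:**
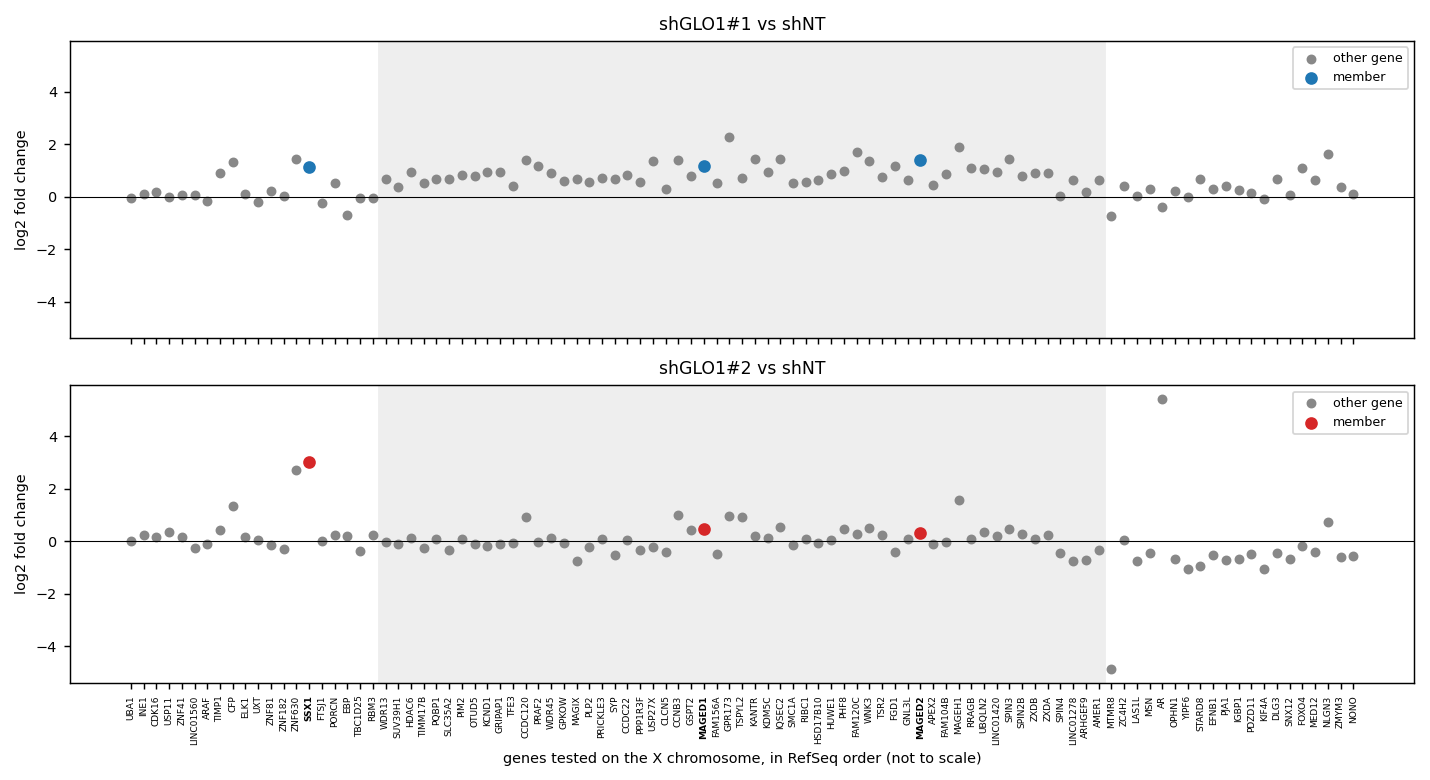
Log2 fold change against shNT (vertical axis) of 97 tested genes on the X chromosome in order and not to scale, in shGLO1#1 (upper panel) and shGLO1#2 (lower panel). The shaded run of 57 genes, with 20 genes on each side, lies above 0 throughout in shGLO1#1 and has a median of 0.04 over its 55 non-members in shGLO1#2; the 3 members SSX1, MAGED1 and MAGED2 are colored and in bold.

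The genes around the members on the X chromosome were also read in RefSeq order, and their values here are log2 fold changes. The 3 tested genes on each side of 13 tested members made 53 genes, with 9 higher and 1 lower call in shGLO1#1 and 6 higher and 1 lower call in shGLO1#2. All 437 X-linked genes tested that are no members, these 53 included, had 63 higher and 10 lower calls in shGLO1#1 and 42 and 11 in shGLO1#2. Over all genes tested, 5.98% were called higher and 2.75% lower in shGLO1#1, and 5.09% and 2.59% in shGLO1#2. On one side of the MAGEC genes, 3 neighbors were higher in shGLO1#2 with MAGEC2 and MAGEC3. They were the noncoding gene LINC00632 at 6.03 (adjusted p = 1.51e-05), LDOC1 at 2.34 (adjusted p = 1.73e-08), and SPANXD at 3.16 (adjusted p = 5.39e-05). SPANXD, a SPANX gene that the symbol rule leaves out, had 1, 1 and 5 counts in shNT, 3, 3 and 2 in shGLO1#1, and 24, 22 and 22 in shGLO1#2. It passed the filter on low counts through shGLO1#2 alone, where it is high, so its adjusted p supports nothing further. Any neighbor with few counts elsewhere can pass in the same way, so the neighbor calls are a description. In shGLO1#1, LDOC1 was called higher as well, at 1.18 (adjusted p = 4.42e-06). LINC00632 at 1.08 (adjusted p = 0.564) and SPANXD at 0.08 (adjusted p = 0.938) were not called there. On the other side FMR1 and IDS stood at 0.03 and -0.06. MAGEC1, which lies between MAGEC3 and MAGEC2, was lower in the same clone.

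GABRA3, a GABA receptor gene before CSAG1, MAGEA12 and MAGEA6, was lower in shGLO1#2 as they were, at -1.68 (adjusted p = 0.00182), with 0.52 in shGLO1#1 (adjusted p = 0.129). The next genes after them, CETN2 and NSDHL, were at 0.17 and 0.11 in shGLO1#2. Beside MAGEB1, which was off in both clones, DCAF8L2 rose in shGLO1#2, at 4.89 (adjusted p = 2.34e-04), and the dystrophin gene DMD fell in shGLO1#1, at -2.76 (adjusted p = 1.50e-07). Beside SSX1, ZNF630 was called higher in shGLO1#2, at 2.70 (adjusted p = 0.0100). Beside CTAG2, GAB3 was called higher in shGLO1#1, at 1.35 (adjusted p = 0.00398), and not in shGLO1#2, at -0.33 (adjusted p = 0.563), and the clones differed at -1.67 (adjusted p = 0.00111).

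**Figure D5:**
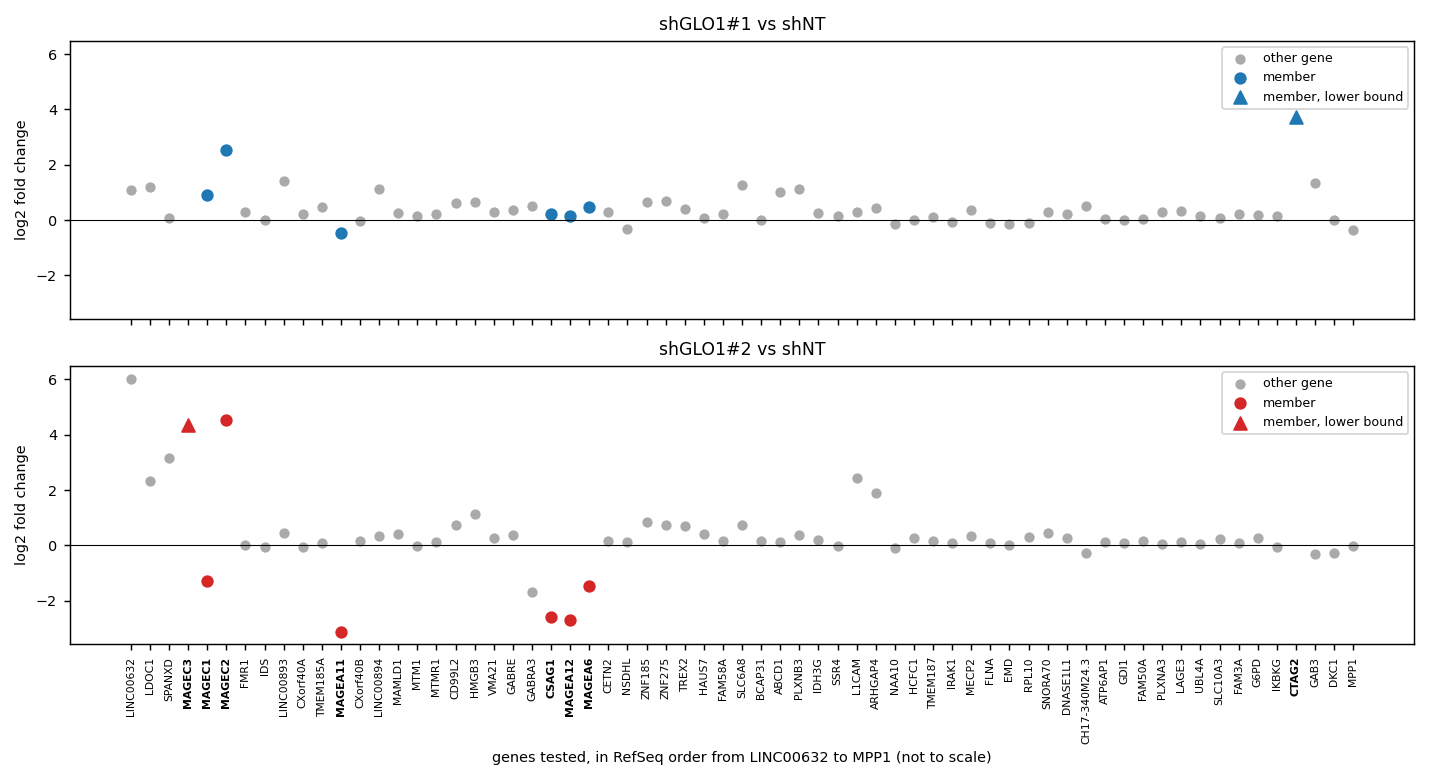
Log2 fold change against shNT (vertical axis) of the 65 tested genes from LINC00632 to MPP1 along the X chromosome, in order and not to scale, in shGLO1#1 (upper panel) and shGLO1#2 (lower panel). The 8 members are colored and in bold; triangles are lower bounds for switched genes (MAGEC3, CTAG2), and a switched gene with no bound in that clone is not drawn. In shGLO1#2, MAGEC1, MAGEA11, CSAG1, MAGEA12, MAGEA6 and GABRA3 lie below -1 while most other genes lie near 0.

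Enzymes that write, erase or read DNA methylation and histone marks were mostly within the limits. Of 36 tested, 2 were called higher in shGLO1#1, 1 in shGLO1#2 and none lower by edgeR or DESeq2, with 21 and 17 at an unadjusted p under 0.05 in either direction. Over all genes tested, 5.98% and 5.09% were called higher, so the list did not stand above that share. DNMT3A, a de novo DNA methyltransferase, rose in both clones. It had 33, 36 and 37 counts in shNT, 182, 182 and 145 in shGLO1#1, and 197, 190 and 154 in shGLO1#2, with log2 fold changes of 2.15 (adjusted p = 3.83e-07) and 2.28 (adjusted p = 3.42e-07). TET1, which oxidizes methylcytosine, rose in shGLO1#1 at 1.79 (adjusted p = 6.94e-05). In edgeR no gene of this list was called between the clones, and none in DESeq2, with 21 of 36 at an unadjusted p under 0.05. DNMT1, the maintenance methyltransferase, stood at -0.27 in shGLO1#1 (adjusted p = 7.06e-04) and 0.06 in shGLO1#2 (adjusted p = 0.408). Short of the limit of 1, the largest falls of the list in shGLO1#2 were MBD1 at -0.90 (adjusted p = 1.19e-06) and MBD2 at -0.85 (adjusted p = 5.52e-06). In shGLO1#1 these 2 genes were at -0.43 and -0.44. The largest uncalled rise in shGLO1#2 was TET1 at 0.84 (adjusted p = 0.0304). The part of these enzymes in the members' levels was not tested.

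Of 20 tested partners of MAGE, PRAME and SSX proteins, 2 were called higher in shGLO1#2, the ubiquitin ligase gene LNX1 at a log2 fold change of 1.07 (adjusted p = 0.00467) and HAVCR1 at 1.80 (adjusted p = 6.64e-05), where 5.09% of all genes tested were called higher. In shGLO1#1 none was called by edgeR or DESeq2, with 9 at an unadjusted p under 0.05. TRIM28, the ligase that MAGEA6 and MAGEC2 bind, was at -0.11 in shGLO1#1 (adjusted p = 0.0914) and 0.23 in shGLO1#2 (adjusted p = 0.00330). Between the clones, PJA1, the ligase bound by MAGED1, was lower in shGLO1#2, at -1.10 (adjusted p = 8.95e-06), and HAVCR1 was higher, at 1.62 (adjusted p = 9.98e-05). The tested genes next to PJA1 on the X chromosome, EFNB1 and IGBP1, stood at -0.82 and -0.92 between the clones. Whether these values share a cause was not tested.

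Genes of other cell types were read beside these results. Of 5 germ cell markers, SYCP1 had no count, DDX4, DAZL and SYCP3 were at most at 0.111 CPM on average, and the list summed to 1.14 to 1.30 CPM in shNT, 1.37 to 2.47 in shGLO1#1 and 1.68 to 2.29 in shGLO1#2, nearly all of it MAEL. Of 3 leukocyte markers (PTPRC, CD3E and CD14), CD3E had at most 0.0217 CPM on average and CD14 at most 0.525, while PTPRC fell in both clones, at log2 fold changes of -2.79 (adjusted p = 1.97e-06) and -1.71 (adjusted p = 6.50e-05). The leukocyte list summed to 6.65 to 9.68 CPM in shNT, 1.25 to 2.11 in shGLO1#1 and 2.35 to 3.60 in shGLO1#2. The 5 fibroblast and endothelial markers summed to 11.2 to 18.5, 15.1 to 18.3 and 16.4 to 28.1 CPM, with CDH5 at 0 in shNT and shGLO1#1. Within these, PECAM1 rose in both clones, at 1.66 (adjusted p = 0.00156) and 1.90 (adjusted p = 6.01e-04), and PDGFRB rose in shGLO1#2, at 1.10 (adjusted p = 0.00776), and in shGLO1#1 it went the other way, from 2.42 to 1.20 CPM on average (adjusted p = 0.0313), where DESeq2 called it lower and edgeR did not. The part of PTPRC, PECAM1 and PDGFRB in the members' levels was not tested.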

How the data were processed

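RNA from MDA-MB-231 cells was sequenced by the authors with an Illumina TruSeq RNA kit, which does not mark strand. Per the labels and the submitters' processing notes, reads were made with bcl2fastq 2.17, aligned to hg19 with TopHat2 2.1.1 and counted with HTSeq. The deposited values are raw counts per gene symbol. The sources used here give neither the annotation nor the HTSeq strand setting. Lines that name no gene (20.5 to 22.9% of the alignments) were left out, among them 5.76 to 6.15% not aligned uniquely and 1.50 to 1.95% ambiguous. Labels call the 3 libraries of a group biological replicates.

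The tests used edgeR 4.0.16 in R 4.3.3 (quasi-likelihood, TMM, filterByExpr at 10 counts and a total of 15), with all 9 libraries in a single fit. CPM use TMM-scaled library sizes, and a fold change is given as log2. Calls needed a Benjamini-Hochberg adjusted p under 0.05 over all genes tested and a log2 fold change beyond 1. The fit was tested on simulated data. Named were all members expressed in at least 1 condition with their values, members of low counts with summed counts, and called genes of each list. MAGEA11 was named with its values as a tested member. Members of a switch and those added by name have no p. The members and lists were chosen with earlier results of these data known, and so were neighbors, the run of X-linked genes and motifs. Same-numbered replicates of shGLO1#2 and shNT deviated together (r = 0.210, 0.185 and 0.309), as did those of the other pairs only in part (-0.0339, 0.0558 and 0.250 for shGLO1#1 and shNT; 0.197, 0.0691 and 0.341 between the clones). Alternatives were RLE scaling, DESeq2 1.42.0, other filters, other count limits, a replicate block and each library left out. A further marker gene is not reported here.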

Additional observations from a re-analysis of the deposited data

Results flagged for a closer look

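The test of the difference between the 2 clones, which share the control, called 10 members, of which CTAG2 and MAGEC3 had been selected on their counts and are left without a test. The other 8 are given as log2 fold changes of shGLO1#2 over shGLO1#1 from edgeR. MAGEC2 (1.97) and SSX1 (1.88) were higher in shGLO1#2 in 3 of 3 libraries. CSAG1 (-2.83), MAGEA12 (-2.83), MAGEC1 (-2.20) and MAGEA6 (-1.92) were lower there in 3 of 3 libraries, and so was MAGED2 (-1.09). MAGEA11 (-2.66) was lower as well, although its libraries overlapped between the clones.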

How the results depend on the processing

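Of the members called, 8, 10 and 10 in shGLO1#1, shGLO1#2 and between the clones, counts stayed at these values under RLE scaling, DESeq2 and the replicate block, and ran from 7 to 9, 10 to 10 and 9 to 10 with a library left out. A filter at a mean of 1 CPM left 5, 6 and 7, since it removes low members before the test, and no filter gave 8, 13 and 12. Taking 5 counts as expressed gave 3, 4 and 2 switches, with SSX8 coming on in shGLO1#2. Requiring 20 counts in every library for expressed left 1 switch from shNT to shGLO1#1, 1 to shGLO1#2 and 0 between the clones, since only MAGEB1 reaches that level, and taking silent as 0 counts left 1 between the clones. Genes called numbered 1197, 1052 and 971, and 1217, 1076 and 989 with the replicate block, which changed no member call. For shGLO1#1 against shNT, CSAG1 turned to -0.0032 without shNT replicate 1 and to -0.20 without shGLO1#1 replicate 1, and MAGEA12 to -0.03 without the latter (ranges with a library left out up to 0.44 and 0.31); neither was called before, and the cause was not tested. Depth limits the low members, whose counts lie under 10 in a library.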

Other observations

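Of 34 tested autosomal cancer-testis genes, 2 were called higher in both clones, the cilium and sperm tail genes SPAG17 (log2 fold change 3.16 in shGLO1#1 and 4.11 in shGLO1#2, edgeR adjusted p = 0.00148 and 8.02e-05) and SPEF2 (1.51 and 1.74, adjusted p = 0.0187 and 0.00888). SPAG17 had 0, 1 and 2 counts in shNT, 13, 12 and 7 in shGLO1#1, and 26, 19 and 15 in shGLO1#2. It passed the filter on low counts through the clones, where it is high, so its adjusted p supports nothing further. Over all genes tested, 5.98% and 5.09% were called higher in the clones, so 2 of 34 is near the general share. ZNF165 was called lower in shGLO1#2 (-1.05, adjusted p = 1.46e-04), and CABYR, a sperm fibrous sheath gene, was higher in shGLO1#2 than in shGLO1#1 (1.78, adjusted p = 0.00173).

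Relatives of TSPYL5 outside the rule stayed under the limit of 1. TSPYL2 stood at 0.69 and 0.94 in shGLO1#1 and shGLO1#2, TSPYL4 at 0.33 and 0.79 and TSPYL1 at 0.35 and 0.22. None of the 3 was called by edgeR or DESeq2, and all 3 had an edgeR adjusted p under 0.05 in both clones. TSPYL2 lies in the run of X-linked genes from WDR13 to AMER1.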
